A study of Mus musculus with 50 samples.

Results

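Complement in the amputated mouse digit was followed through 9 genes. They were C1qa, C1qb and C1qc, which encode the 3 chains of C1q, the proteases or protease precursors C2 and Cfb (factor B), the components C3 and C4b, and the receptors C3ar1 and C5ar1. The genes were taken by name from a list of complement components and receptors, 9 of the 21954 genes in the tables, and all 9 were found. They were read in 41 digits and in 9 libraries of cultured macrophages.

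Complement is a set of plasma and cell-surface proteins that tag microbes, immune complexes and dying cells. In the classical pathway C1q binds the target and its partner proteases cleave C4 and C2, which together form an enzyme that cleaves C3. Factor B forms the corresponding C3-cleaving enzyme of the alternative pathway. The small fragments C3a and C5a act on myeloid cells through the receptors encoded by C3ar1 and C5ar1. Liver supplies most complement in plasma, whereas tissue macrophages are a main source of C1q, so that transcripts in a wound bed speak of local expression and not of plasma protein.

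The digits came from adult male C57Bl/6 mice in which digit 3 of the hindlimb was cut through the distal terminal phalanx, the last bone of the toe. The 29 non-regenerative digits had 60 to 80% of that bone removed, with 17 of them above 67%. They were sampled at 0, 3, 6, 12 and 24 hours and at 3, 7, 14 and 21 days, with 3 digits at each time except 5 at day 7. The share of bone removed differed between times, such as 64 to 67% at 12 hours and 71 to 79% on day 21. The 12 intermediate digits, labelled Medium, had 41 to 55% removed and were sampled at 0 hours, 24 hours, 14 days and 21 days, with 3 digits each. Each library held a mixture of the cells around one wound bed, and both hindlimbs of a mouse could have been used, so that digits are not in every case separate animals and p-values then measure the spread between digits. The macrophages were grown from bone marrow of female C57BL/6 mice in L929-conditioned medium. M0 cells were the baseline, for which the labels give no time, M1 cells received IFN-γ plus LPS and M2 cells IL-4, both for 24 hours, with 3 libraries per state. Nothing states whether the 3 libraries of a state were separate cultures.

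The libraries held between 1468749 and 13011782 expected counts in digits and between 15683424 and 27904773 in macrophages. A pair of non-regenerative digits stood apart. The second digit at day 7 had 10025 genes detected, against 11631 to 16747 in the other digits, and C1qb, C1qc, C2 and C5ar1 were all at 0 in it. In the second digit at day 14 the normalized TPM summed to 3362791, against at most 1434851 elsewhere in the digits. Results that rest on these digits are given with and without them where both were computed. In the labels 5 pairs of digits carry the same animal mark, date and side. Of these, 3 join a 0-hour digit with a 12-hour non-regenerative digit (non-regenerative replicate 1 and intermediate replicates 2 and 3), 1 joins a day-3 with a day-7 non-regenerative digit, and 1 joins the first intermediate with the third non-regenerative digit of day 14. What a shared mark means is not stated, and such digits may not be separate animals. The 4 hepatocyte markers (Alb, Apoa1, Ttr and Serpina1a) summed to at most 2.52 normalized TPM in any digit and 0.226 in any macrophage library. The 8 macrophage markers were all detected in the macrophage cultures, where they summed to between 3890 and 6130 normalized TPM.

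All 9 genes lie on the minus strand of the mouse genome (GRCm38, GENCODE positions). The 3 C1q genes are neighbours on chromosome 4, with C1qb at chr4:136880129-136886187, C1qc at chr4:136889804-136893065 and C1qa at chr4:136895917-136898803. C4b (chr17:34728380-34743882), Cfb (chr17:34856374-34862518) and C2 (chr17:34862604-34898265) lie within a short stretch of chromosome 17, and C3 lies farther along it at chr17:57203970-57228136. C3ar1 is at chr6:122847138-122856161 and C5ar1 at chr7:16246743-16259540. A read-through gene, Gm20547, overlaps both Cfb and C2, so that the split of reads between these is uncertain.

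The upstream sequences of C1qb and C3 are shown because these genes stand for the contrasting behaviours in the macrophages described further on, a C1q chain that stayed near its M0 level and a component that rose in both stimulated states. Each is the 250 bases before the annotated start, written 5′ to 3′ along the gene (RefSeq, GRCm38.p6). The windows are chr4:136886201-136886450 and chr17:57228137-57228386, both on the minus strand, and capitals mark a PU.1 core (GAGGAA) in C1qb and a C/EBP motif (TTGCNNAA) in C3.
C1qb: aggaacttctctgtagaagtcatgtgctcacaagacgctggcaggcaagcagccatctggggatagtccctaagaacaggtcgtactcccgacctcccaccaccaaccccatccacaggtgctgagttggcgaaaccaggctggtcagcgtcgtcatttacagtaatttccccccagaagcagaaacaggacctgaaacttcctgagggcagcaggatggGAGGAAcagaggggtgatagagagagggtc
C3: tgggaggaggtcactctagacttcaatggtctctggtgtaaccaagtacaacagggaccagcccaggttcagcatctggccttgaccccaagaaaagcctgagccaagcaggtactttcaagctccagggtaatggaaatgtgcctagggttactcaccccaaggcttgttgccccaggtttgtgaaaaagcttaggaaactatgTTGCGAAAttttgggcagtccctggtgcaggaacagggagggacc
The capitals span bases -30 to -25 before the start in C1qb and -45 to -38 in C3. Letters were searched on both strands, and no match overlapped another. Of 32817 mouse promoter windows of the same length, 23.3% held GAGGAA and 9.57% held TTGCNNAA. C1qc held the PU.1 core once, on the opposite strand at bases -193 to -188. The core of the interferon-stimulated response element (2.97% of all windows) was not in the windows of the 5 genes with a sequence, C1qb, C1qc, C3, C3ar1 and C5ar1. These matches describe the letters only.

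Levels below are normalized TPM, which is per transcript length, and changes are log2 fold changes of normalized counts with standard errors from edgeR's quasi-likelihood test. A gene was called when its adjusted p (Benjamini-Hochberg over all genes tested) was under 0.05 and its mean normalized count changed by more than 2-fold. In the digits the C1q chains had the highest medians of the 9 genes, 24.6 for C1qa, 22.5 for C1qb and 15.9 for C1qc over 41 digits, and C2 the lowest, 3.22.

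**Figure D1:**
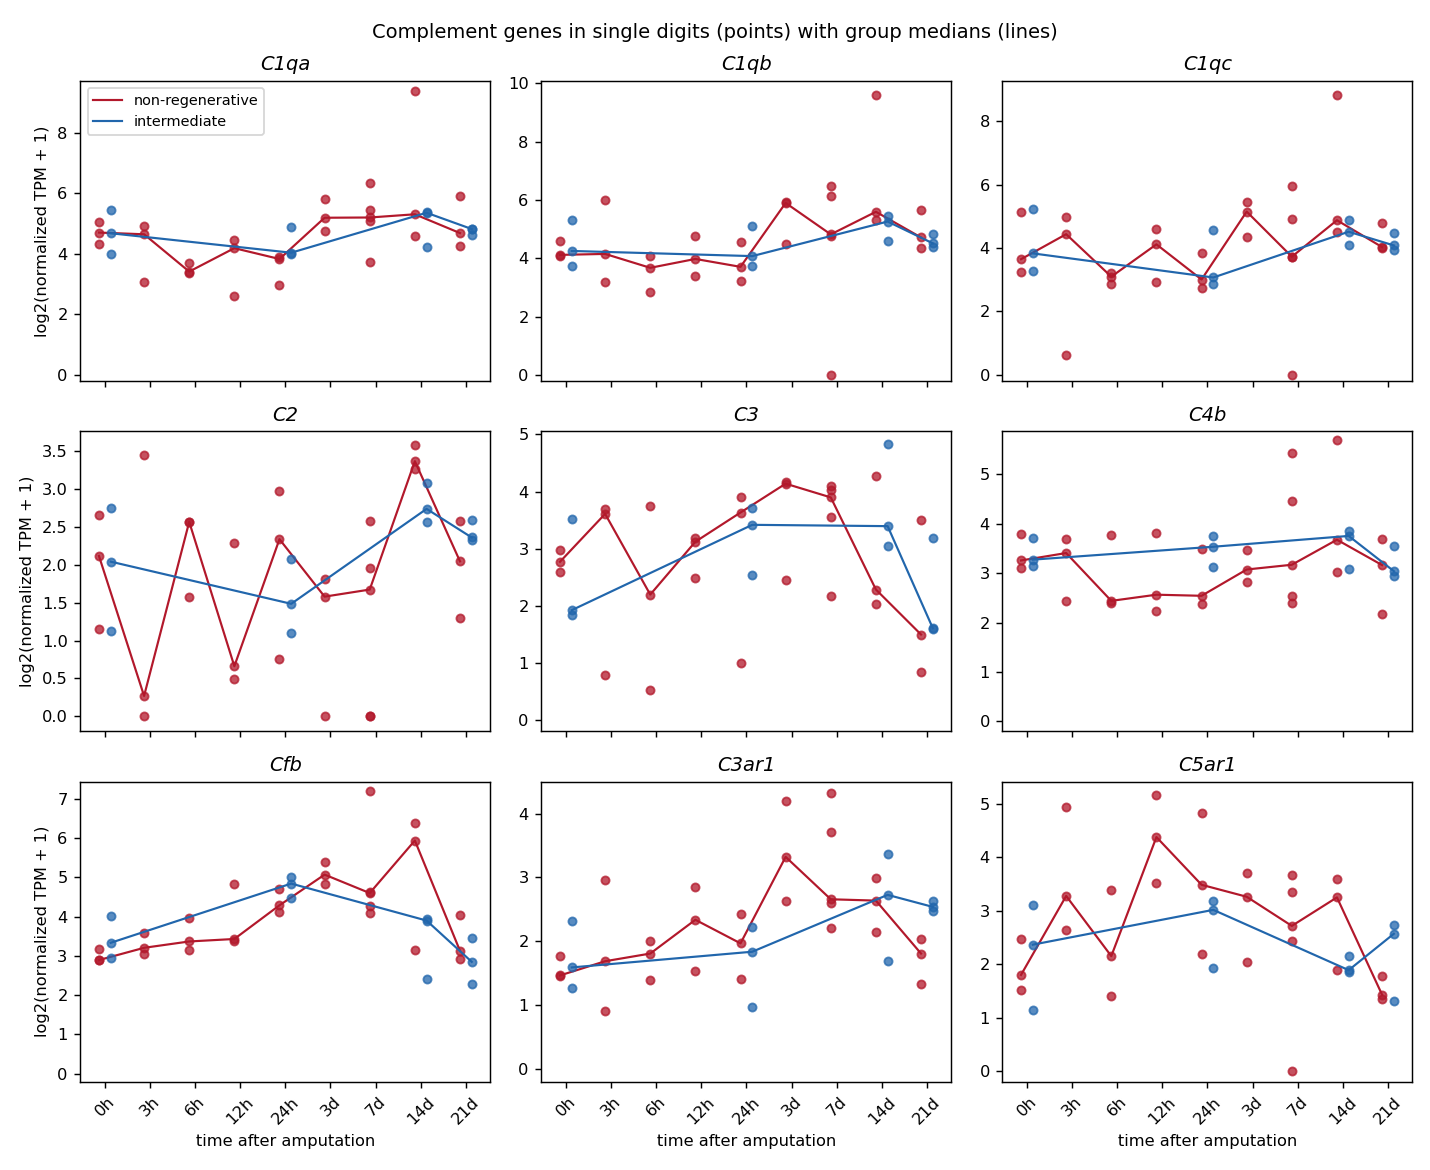
Levels of the 9 genes in single digits as log2(normalized TPM + 1) against time after amputation (not to scale), with non-regenerative digits in red, intermediate digits in blue and lines through the group medians. C1qa in the non-regenerative digits drops to between 9.36 and 12 normalized TPM at 6 hours, and the point at 658 on day 14 is a single digit.

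In non-regenerative digits C1qa fell by 6 hours, and C1qa and C1qc rose from 24 hours to day 3. C1qa, the A chain, stood at 32.0, 25.0 and 18.9 normalized TPM in the 3 digits taken at amputation. At 6 hours the 3 digits read 12, 9.36 and 9.65 normalized TPM. Every 6-hour digit was below every 0-hour digit, and the log2 fold change of C1qa was -1.23 ± 0.29 (edgeR adjusted p = 0.0469, mean normalized counts 47.4 against 111.5). C1qa was the 1 of 9 genes called at 6 hours, against 4.85% of all genes tested. The C1qb and C1qc changes were -0.64 ± 0.37 and -1.20 ± 0.53, neither called (edgeR adjusted p = 0.319 and 0.199). The call of C1qa was lost with any 1 of the 6 digits left out (edgeR adjusted p from 0.0782 to 0.135) and in a fit of all 41 digits (0.636).

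Each digit label holds a date, whose meaning is not stated, and the dates were divided here into an earlier and a later period. At 6 hours the earlier digits held 12 and 9.36 normalized TPM of C1qa against 32.0 in the 1 earlier digit at amputation. The later digit held 9.65, against 25.0 and 18.9. The order was thus the same in both periods. The 8 macrophage markers summed to between 218 and 249 normalized TPM at 6 hours and between 126 and 166 at 0 hours, and 0 of the 7 tested were called. Their median log2 fold change was -0.447, with 2 of 7 above 0, so that the sum was higher while most single markers were lower in the fit, as C1qa was. Their part in the C1qa result was not tested.

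At 24 hours C1qa was still low, at 6.83, 13.2 and 13.8 normalized TPM, with a log2 fold change from 0 hours of -1.107 ± 0.352 that was not called (edgeR adjusted p = 0.0642). By day 3 the digits held 35.5, 25.9 and 54.4 normalized TPM, all above the 24-hour digits. From 24 hours to day 3 C1qa rose by a log2 fold change of 1.77 ± 0.39 (edgeR adjusted p = 0.0464). C1qc, the C chain, read 5.71, 7.02 and 13.2 normalized TPM at 24 hours and 34.4, 19.5 and 43.0 on day 3, and rose by 1.90 ± 0.42 on the log2 scale (edgeR adjusted p = 0.0477). C1qb, the B chain, read 8.37, 12.1 and 22.5 normalized TPM at 24 hours and 58.7, 21.5 and 60.0 on day 3, with a log2 fold change of 1.70 ± 0.47 that was not called (edgeR adjusted p = 0.0914). The 2 called C1q genes were 2 of 9, against 2.76% of all genes.

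Within the earlier date period C1qa was 35.5 and 54.4 normalized TPM on day 3 against 6.83 and 13.8 at 24 hours, and within the later period 25.9 against 13.2. C1qc was 34.4 and 43.0 against 5.71 and 13.2 in the earlier period and 19.5 against 7.02 in the later. Both calls held in 1 of the 6 fits that left out a digit (edgeR adjusted p up to 0.177 for C1qa and 0.191 for C1qc) and were lost in the fit of all 41 digits (0.466 and 0.713). Among the 8 macrophage markers none was called between 24 hours and day 3, but their median log2 fold change was 1.0 with 6 of 8 above 0, in the direction of the C1q genes. Their sums were 206 to 334 and 186 to 297 normalized TPM. The part of cell numbers was not tested. In a bulk digit fewer cells of a type and less RNA per cell cannot be told apart.

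Beyond day 3 the C1q values spread widely. On day 7 C1qa was 33.2, 12.4, 42.5, 79.1 and 35.7 normalized TPM, and C1qb and C1qc were at 0 in the digit with the fewest genes, the one at 12.4. On day 14 the 3 digits held 23.2, 658 and 38.5 normalized TPM of C1qa, 47.4, 772 and 38.9 of C1qb and 21.8, 452 and 28.3 of C1qc. The digit at the top was the one whose total stood apart. Without it the C1qa mean on day 14 was 30.9 ± 10.9 (SD, n = 2) normalized TPM, beside 25.3 ± 6.57 (SD, n = 3) at amputation. The log2 fold changes with it were 2.68 ± 1.079 for C1qa, 3.39 ± 1.05 for C1qb and 2.69 ± 1.110 for C1qc, none called (edgeR adjusted p = 0.622, 0.438 and 0.625). Leaving out that digit also gave 0 calls of the 9 genes.

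On day 21 C1qa was 24.7, 18.2 and 58.5 normalized TPM, overlapping the values at amputation. Over all 9 time points C1qa and C1qb differed (edgeR adjusted p = 0.0063 and 0.0481), as did C3ar1 (0.0479), 3 of 9 genes against 7.62% of all genes. Without the day-14 digit that stood apart neither C1q chain was called (edgeR adjusted p = 0.0743 for C1qa and 0.563 for C1qb). Without both digits that stood apart edgeR called 5 genes, C1qa, C1qb, Cfb, C3ar1 and C5ar1, and over all genes 3003 of 14722. Of the 29 fits that each omitted 1 digit, the call was kept in 28 for C1qa, 7 for C1qb and 9 for C3ar1, and C1qb was also lost with the date period in the fit (edgeR adjusted p = 0.063). With all 29 digits the genes next in order gave an edgeR adjusted p of 0.0593 (Cfb), 0.127 (C1qc) and 0.169 (C5ar1).

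The C1q chains are joined in one molecule, and the share of each of the 3 transcripts in their sum was read in each digit. Of their summed normalized TPM, C1qa made up 36.7 ± 6.88% (SD, n = 40), C1qb 38.3 ± 7.2% and C1qc 25.0 ± 6.85% in the digits other than the second one at day 7. Single digits ranged from 23.7 to 52.4% for C1qa, 23.5 to 56.3% for C1qb and 3.27 to 42.9% for C1qc. Across 41 digits Spearman's rho was 0.869 between C1qa and C1qb, 0.848 between C1qb and C1qc and 0.81 between C1qa and C1qc. These are descriptions over digits that share the sequencing protocol and differ in depth.

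**Figure D2:**
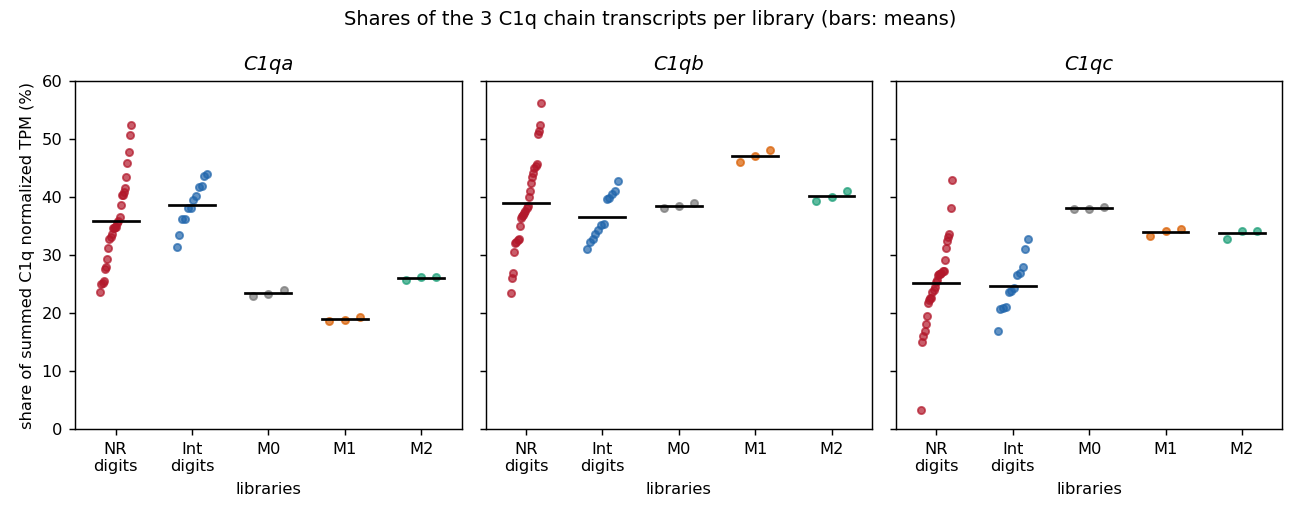
Share of each C1q chain in the summed normalized TPM of the 3 chains, in percent, for each library (points) with the mean of the set (bar), without the second digit at day 7. In the macrophages C1qb takes a mean of 47.1% in M1 and 38.5% in M0, whereas C1qa takes 18.9% and 23.4%.

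C2 and C4b, the substrates of the C1 proteases, showed no called change in any digit comparison that used all its digits. C2 was low: it read 1.22, 5.34 and 3.34 normalized TPM at amputation, was at 0 in 4 of 41 digits, and did not pass the filter on low counts at 3 hours, 12 hours and 7 days. On day 14 the C2 values were 9.34, 8.61 and 11 normalized TPM. All 3 lay above the 0-hour digits, and the digit that stood apart was the lowest of them, yet the log2 fold change of 2.13 ± 0.71 was not called (edgeR adjusted p = 0.487). C4b read 12.8, 7.55 and 8.57 normalized TPM at amputation. Its log2 fold change was -0.59 at 6 hours and -0.51 at 24 hours. It was called lower at 6 hours without the first 6-hour digit (-1.38, edgeR adjusted p = 0.0423) and at 24 hours without the third 24-hour digit (-1.23, 0.0199). The highest C4b values in normalized TPM, 42.5 on day 7 and 50.8 on day 14, were in the digits that stood apart. On counts scaled to library size (CPM) the day-7 digit was not high. It read 15.4 CPM, against 12.9 to 28.3 in the other day-7 digits and 23.3 to 33.1 at amputation. The day-14 digit was high on both scales, at 60.8 CPM against 22.7 and 32.3 in the other day-14 digits. The reason for the difference between scales was not tested.

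C3, the component on which all pathways converge, was 6.88, 5.82 and 5.03 normalized TPM at amputation and 4.62, 7.7 and 8.09 at 12 hours. On normalized counts the 12-hour mean was 132.9 ± 25.6 against 67.3 ± 7.44 (SD, n = 3 each), and the fit gave a log2 fold change of 0.98 ± 0.26 (edgeR adjusted p = 0.0335) whose 1.97-fold size fell just short of the threshold. The normalized TPM and count scales thus rank the digits differently for C3, and the reason was not tested.

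Factor B rose in the first day. Cfb was 6.4, 6.43 and 7.96 normalized TPM at amputation. At 24 hours it was 16.4, 18.5 and 24.9, above every 0-hour digit, and rose by a log2 fold change of 1.51 ± 0.36 (edgeR adjusted p = 0.0242). In the earlier date period it was 16.4 and 24.9 normalized TPM against 6.4, and in the later period 18.5 against 6.43 and 7.96. The call was kept in 1 of 6 fits that left out a digit (edgeR adjusted p up to 0.0707) and lost in the fit of all 41 digits (0.314).

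On day 3 Cfb reached 40.6, 27.3 and 32.5 normalized TPM. These digits were all above those at amputation, with a log2 fold change of 2.1 ± 0.4 (edgeR adjusted p = 0.0706). On day 7 Cfb was 23.2, 145, 23.5, 18.1 and 16 normalized TPM, with the digit of fewest genes at the top. Without that digit the mean was 20.2 ± 3.74 (SD, n = 4). On day 14 it was 7.86, 82.5 and 60.1, and on day 21 6.52, 7.74 and 15.3. The day-21 digits overlapped those at amputation.

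C5ar1, the C5a receptor carried by neutrophils and macrophages, gave the largest called change of the 9 genes in the digits. It was 4.53, 1.87 and 2.48 normalized TPM at amputation. At 12 hours it was 34.7, 10.4 and 19.8, above every 0-hour digit, and rose by a log2 fold change of 2.62 ± 0.37 (edgeR adjusted p = 0.00392, mean normalized counts 159.6 against 26.2, 6.15-fold). C5ar1 was the 1 gene called of the 8 tested at 12 hours, against 11.4% of all genes. The call survived all 6 fits that omitted a digit, at log2 fold changes from 2.28 to 2.84. In the fit of all 41 digits the value was 2.59 (edgeR adjusted p = 0.0778) and with the date period in that fit 2.03 (0.205). All 12-hour digits were of the earlier period, in which the 1 digit at amputation held 4.53 normalized TPM. The 12-hour digits had 64 to 67% of the bone removed, with 0 above 67%, and those at amputation 62 to 75%.

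At 24 hours C5ar1 was 10.2, 3.59 and 27.3 normalized TPM, and rose by a log2 fold change of 1.96 ± 0.53 (edgeR adjusted p = 0.0369). The lowest of these lay below the highest 0-hour digit on the normalized TPM scale. In the earlier period it was 10.2 and 27.3 against 4.53 normalized TPM, and in the later 3.59 against 1.87 and 2.48. The call was kept in 2 of 6 fits that left out a digit and lost in the fit of all 41 digits (edgeR adjusted p = 0.237). C5ar1 and Cfb were the 2 of 9 genes called at 24 hours, against 10.7% of all genes.

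Neutrophil markers were also higher at 12 and 24 hours, the times at which C5ar1 was called. The 8 markers summed to 20.4 to 27.7 normalized TPM at amputation, 408 to 1140 at 12 hours (Ly6g and Ngp at 0 in all 3 digits) and 1130 to 1300 at 24 hours. At 12 hours all 6 of those tested were called higher, among them S100a8 and S100a9, and at 24 hours 3 of 5 were. Values at the other times follow. At 3 hours the sums were 17.3 to 104 and C5ar1 was 5.25, 8.69 and 29.7 normalized TPM, not called. At 6 hours the sums were 189 to 252, with 3 of 4 markers called higher. C5ar1 was then 9.45, 3.44 and 1.64 and not called (edgeR adjusted p = 0.565). On day 3 the sums were 647 to 1110, with 2 of 5 markers called higher. C5ar1 was then 12, 3.13 and 8.59, at a log2 fold change of 1.41 ± 0.48 that was not called (edgeR adjusted p = 0.31). The sums were 66.1 to 926 on day 7, 35 to 2460 on day 14 and 3.56 to 28.3 on day 21. C5ar1 was 0 to 11.7, 2.7 to 11 and 1.53 to 2.41 on these days, and neither it nor a neutrophil marker was called. Of the 8 macrophage markers Fcgr1 and Cd14 were called higher at 12 hours and Cd14, of 7 tested, at 24 hours, with sums of 250 to 350 and 206 to 334 normalized TPM and median log2 fold changes of 0.309 and -0.069. Their part in the C5ar1 result was not tested. At 24 hours, when Cfb was called, both sums were above those at amputation, but 3 of 7 macrophage markers were above 0 in the fit. Of 5 keratinocyte markers (Krt5, Krt14, Krt1, Krt10 and Krt15) Krt14 was called higher (log2 fold change 1.69 ± 0.25) and Krt15 lower (-4.19 ± 0.34). Of 6 fibroblast markers 3 were called lower, and of 4 endothelial markers 1 was called higher. The part of any of these in the Cfb result was not tested either.

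**Figure D3:**
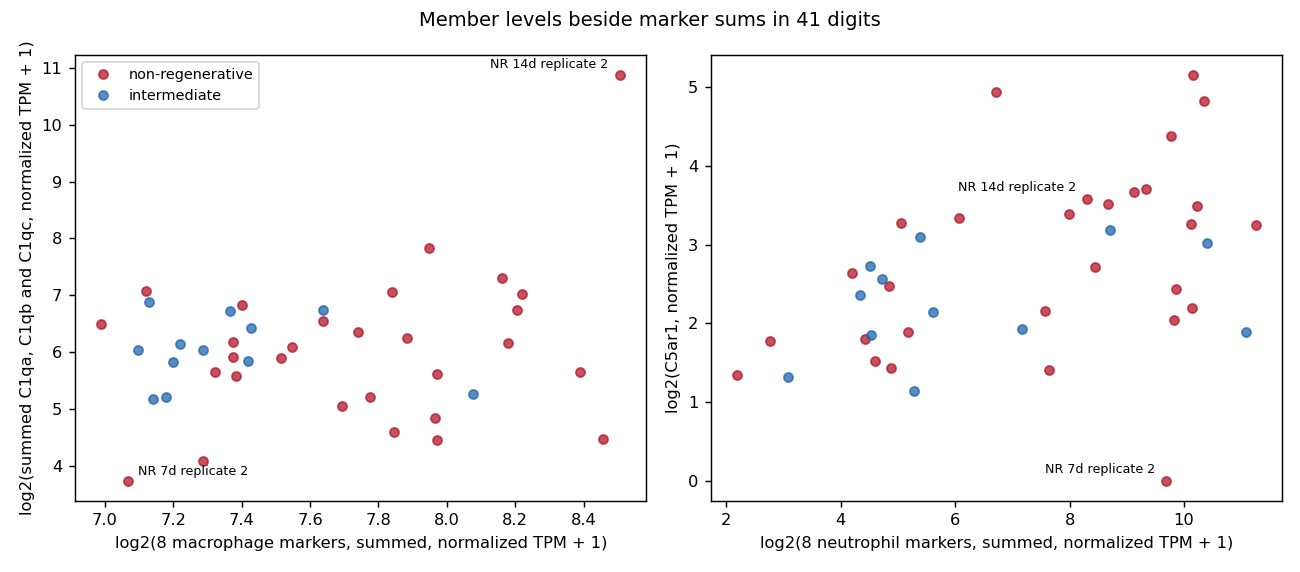
Left, summed C1qa, C1qb and C1qc against the sum of 8 macrophage markers and right, C5ar1 against the sum of 8 neutrophil markers, all as log2(normalized TPM + 1), 1 point per digit in red (non-regenerative) or blue (intermediate). The second digit at day 14 is far above the others for C1q, and the second digit at day 7 has C5ar1 at 0.

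C3ar1, the C3a receptor, was 2.41, 1.74 and 1.76 normalized TPM at amputation and 17.3, 5.2 and 9 on day 3. The day-3 digits were all above the 0-hour digits, at a log2 fold change of 2.41 ± 0.44 that was not called (edgeR adjusted p = 0.0585). On day 7 it was 12.1, 5.04, 3.64, 19.1 and 5.31 normalized TPM. All 5 were above the 0-hour digits, with a log2 fold change of 2.23 ± 0.65 (edgeR adjusted p = 0.543). By day 21 it was 1.51, 2.5 and 3.12, overlapping the values at amputation.

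At 5 of the 8 times none of the genes was called by edgeR. This held at 3 hours (0 of 8 tested, 0% of all genes), on day 3 (0 of 9, 0.723%), day 7 (0 of 8, 0.0537%), day 14 (0 of 9, 0%) and day 21 (0 of 9, 0.452%). At an unadjusted p under 0.05 edgeR gave 0, 4, 2, 5 and 0 genes at these times, against 10.8, 11.1, 4.34, 7.7 and 7.2% of all genes. DESeq2 called 0, 3, 2, 1 and 0. The 4 genes on day 3 were C1qb, Cfb, C3ar1 and C5ar1, and the 3 that DESeq2 called were C1qb, Cfb and C3ar1. All time comparisons share the 3 digits at 0 hours, so they are not independent. The median log2 fold change of the genes tested at 3, 6, 12 and 24 hours was 0.109, 0.042, 0.454 and -0.321, and on days 3, 7, 14 and 21 it was 0.889, 1.126, 2.133 and 0.267. Over all genes tested it lay between -0.048 and 0.015 in these comparisons. The day-7 and day-14 medians include the digits that stood apart, and medians without them were not computed.

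**Figure D4:**
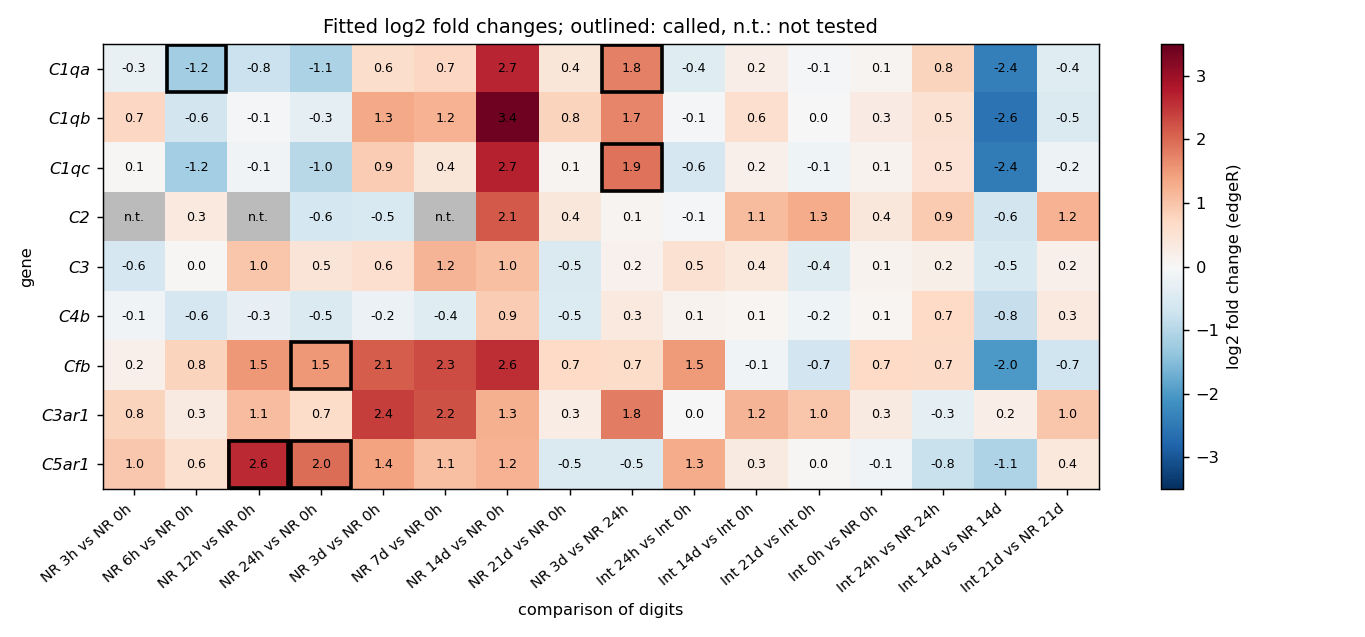
Fitted log2 fold changes (edgeR) of the 9 genes in each comparison of digits, from blue (lower) to red (higher), with called changes outlined and n.t. for not tested. The 6 outlined cells are C1qa at 6 hours, C5ar1 at 12 hours, Cfb and C5ar1 at 24 hours, and C1qa and C1qc from 24 hours to day 3.

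None of the 9 genes was called in the intermediate digits over time. At 24 hours Cfb was 21.3, 31.3 and 27.6 normalized TPM against 6.71, 9.07 and 15.1 at amputation. The groups did not overlap, and the log2 fold change was 1.49 ± 0.45 (edgeR adjusted p = 0.199). DESeq2 called this 1 gene. In the earlier date period the values were 21.3 against 9.07 and 15.1, and in the later 31.3 and 27.6 against 6.71. The 8 macrophage markers summed to 140 to 269 normalized TPM at 24 hours and 139 to 146 at amputation, the 8 neutrophil markers to 142 to 1350 and 19.2 to 40.8, and none of either list was called, with median log2 fold changes of -0.065 and 2.487. The part of either was not tested.

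C5ar1 in the intermediate digits was 1.21, 4.15 and 7.59 normalized TPM at amputation and 7.09, 2.79 and 8.08 at 24 hours, with overlap. C1qa was 15.1, 24.6 and 42.5 normalized TPM at amputation, 15.0, 15.4 and 28.2 at 24 hours, 17.8, 40.5 and 39.9 on day 14 and 27.2, 23.6 and 27.5 on day 21, and its groups overlapped throughout. On day 21 C2 (5.05, 4.14 and 4.04 normalized TPM against 1.18, 3.12 and 5.73) had a log2 fold change of 1.29 ± 0.54 and C3ar1 (4.81, 4.55 and 5.16 against 1.42, 2.0 and 3.99) one of 0.98 ± 0.39, neither called (edgeR adjusted p = 0.272 and 0.248).

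Of the 9 genes 0 were called at 24 hours (0.0152% of all genes), on day 14 (1.68%), on day 21 (1.39%) and over all 4 times together (6.21%). The unadjusted p of edgeR was under 0.05 for 1, 0 and 2 genes at the single times, against 15.4, 13.4 and 16.6% of all genes. Over all times it was so for 2 (Cfb, adjusted p = 0.0895, and C2, adjusted p = 0.205), against 23.4%. DESeq2 called 1, 0 and 0 genes at these times and 1 over all.

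Comparing the amputation levels at matched times, none of the 9 genes was called either. The intermediate and non-regenerative digits gave 0 calls of 9 at 0 hours (0% of all genes), 24 hours (0%), day 14 (0%) and day 21 (0.648%). At an unadjusted p under 0.05 edgeR gave 0, 0, 3 and 2 genes, and DESeq2 called 0 at each time. At 24 hours every intermediate digit held more C1qa than every non-regenerative one, 15.0 to 28.2 against 6.83 to 13.8 normalized TPM. The log2 difference of 0.79 ± 0.40 was not called (edgeR adjusted p = 0.482), and how many of all genes separated so was not counted. On day 14 the 3 genes were C1qb, C1qc and Cfb, with fitted log2 differences of -2.58, -2.45 and -2.006 (edgeR adjusted p = 0.862 each), and the digit that stood apart enters them. Leaving it out also gave 0 calls of 9 there.

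On day 21 C2 was 5.05, 4.14 and 4.04 normalized TPM in intermediate and 4.96, 1.45 and 3.13 in non-regenerative digits, and the log2 difference on counts was 1.23 ± 0.43 (edgeR adjusted p = 0.257). C3ar1 was 4.81, 4.55 and 5.16 against 1.51, 2.5 and 3.12, all higher in the intermediate digits, with a log2 difference of 0.97 ± 0.31 (edgeR adjusted p = 0.213). All intermediate day-21 digits were of the earlier date period and all non-regenerative ones of the later, so that date and amputation level cannot be told apart there. The test of whether the time courses differed between the amputation levels called 0 of 9 genes by edgeR (0% of all genes). At an unadjusted p under 0.05 it gave 3 (Cfb, C1qb and C1qa, adjusted p = 0.66 each), against 7.1% of all genes.

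In cultured macrophages Cfb, C3, C2, C4b and C3ar1 rose in M1, and Cfb, C3 and C2 rose in M2. No C1q chain passed the 2-fold limit in M1 or M2 with the scaling used. The macrophage table was normalized separately from the digit table, so levels are not compared between them. Cfb was 2.4, 2.39 and 2.51 normalized TPM in M0 and 513, 556 and 549 in M1. It rose by a log2 fold change of 7.87 ± 0.07 (edgeR adjusted p = 4.34e-15), 233-fold on mean normalized counts. In M2 it was 38.5, 23.1 and 27.6 normalized TPM and rose by 3.63 ± 0.19 on the log2 scale (edgeR adjusted p = 2.58e-08).

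C3 was 38.7, 33.9 and 41 normalized TPM in M0, 1232, 1234 and 1231 in M1 and 513, 395 and 456 in M2. The states did not overlap. It rose by a log2 fold change of 5.04 ± 0.07 in M1 and by 3.53 ± 0.10 in M2 (edgeR adjusted p = 2.61e-14 and 3.12e-10). C2 was 0.525, 0.865 and 1.23 normalized TPM in M0, 4.34, 5.16 and 4.46 in M1 and 1.29, 1.19 and 1.37 in M2. It rose by 3.14 ± 0.23 in M1 and by 1.09 ± 0.29 in M2 on the log2 scale (edgeR adjusted p = 5.98e-08 and 0.00585). The M2 call was kept in 3 of 6 fits that left out a library, as the fold fell under 2 in the others. C2 rested on 13.5 to 23 expected counts in the M0 libraries. The split of reads between C2, Cfb and the overlapping Gm20547 is uncertain here too, so the C2 and Cfb rises may not be separate.

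C4b was 1.35, 1.71 and 1.9 normalized TPM in M0, 2.91, 4.08 and 3.51 in M1 and 1.68, 1.64 and 2.05 in M2. It rose in M1 by a log2 fold change of 1.22 ± 0.17 (edgeR adjusted p = 2.46e-05). With library size as the only scaling its fold was under 2, at a log2 fold change of 0.45. In M2 the value was 0.29 ± 0.18 (edgeR adjusted p = 0.178), and M1 exceeded M2 by 0.84 ± 0.13, under 2-fold.

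Both receptors were abundant. C3ar1 was 415, 388 and 413 normalized TPM in M0, 1603, 1611 and 1510 in M1 and 513, 462 and 498 in M2, and it rose by a log2 fold change of 1.97 ± 0.05 in M1 (edgeR adjusted p = 2.21e-12). In M2 its change of 0.21 ± 0.05 was under 2-fold. C5ar1 was 253, 222 and 254 normalized TPM in M0, 417, 374 and 388 in M1 and 140, 132 and 149 in M2. The 3 states did not overlap, with M1 highest. From M0 the log2 fold changes of C5ar1 were 0.68 ± 0.05 in M1 and -0.90 ± 0.06 in M2, both under 2-fold, and with library size as the only scaling the M1 value turned to -0.10.

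The C1q chains were abundant in every state. C1qa was 1672, 1543 and 1790 normalized TPM in M0, 1291, 1192 and 1249 in M1 and 1987, 1807 and 1806 in M2. C1qb was 2760, 2615 and 2843 in M0, 3208, 3095 and 2972 in M1 and 3104, 2805 and 2702 in M2. C1qc was 2755, 2553 and 2837 in M0, 2334, 2139 and 2226 in M1 and 2487, 2401 and 2346 in M2. None passed the 2-fold limit with the scaling used: from M0 to M1 the log2 fold changes were -0.41 ± 0.06 for C1qa, 0.19 ± 0.05 for C1qb and -0.27 ± 0.05 for C1qc. With library size as the only scaling they were -1.18, -0.59 and -1.04. Under library size alone C1qa and C1qc thus fell by more than 2-fold, and the direction of C1qb depends on the scaling. Library size alone shifted the median of all genes to -0.86, against -0.09 with the scaling used.

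From M0 to M1 5 of the 9 genes were called, all higher, against 46.1% of all genes, and from M0 to M2 3 of 9, all higher, against 22.3%. M1 and M2 share the M0 libraries. Between M1 and M2, 5 of 9 were called, all higher in M1 (Cfb, C2, C3ar1, C5ar1 and C3), against 48% of all genes, with log2 differences of 4.14 ± 0.13, 1.95 ± 0.17, 1.66 ± 0.06, 1.48 ± 0.05 and 1.41 ± 0.08. The median log2 fold change of the 9 genes was 1.22 in M1 and 0.213 in M2, against -0.088 and -0.004 over all genes. Of the 8 macrophage markers Fcgr1, Aif1 and Cd14 were called higher in M1 and Csf1r lower, and their sum was 4760 to 5110 normalized TPM in M0, 5910 to 6130 in M1 and 3890 to 4200 in M2. The 8 neutrophil markers summed to 440 to 455, 160 to 192 (Retnlg at 0) and 472 to 528 in these states, and the part of other cells was not tested.

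**Figure D5:**
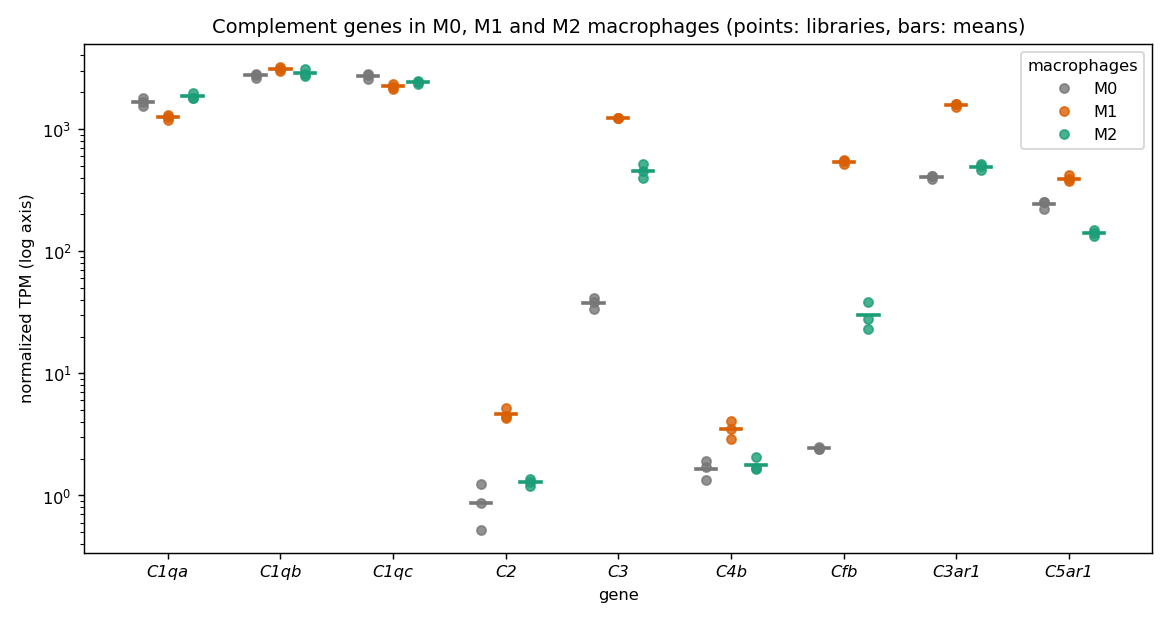
Normalized TPM of the 9 genes on a log axis in the 3 libraries (points) of M0, M1 and M2 macrophages, with the mean of each state (bars). Cfb goes from a mean of 2.43 in M0 to 539 in M1 and 29.8 in M2, while the C1q chains stay between 1192 and 3208.

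The genes whose levels across the 41 digits were most like each of these were found by Spearman's rho among 10730 genes with a mean of at least 5 normalized TPM. They were Camk1 (0.831) and Igfbp4 (0.816) for C1qa, Lyz2 (0.874) and Lama4 (0.855) for C1qb and Csf1r (0.827) and Unc93b1 (0.822) for C1qc. For C3ar1 they were Ctss (0.826) and Lyz2 (0.79), and for C5ar1 Ccl2 (0.771) and Ifitm3 (0.765). Cfb was closest to Sprr2a1 (0.719), Sprr2a2 (0.701) and Serpina3n (0.696). C2, C3 and C4b had no partner above 0.691 among the genes kept. These values describe digits that share protocol and depth differences, and carry no test.

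Of 42 other complement genes, 41 were in the table and 18 to 23 passed the filter in a comparison. In the digits calls came at 12 hours, where 5 of 22 were higher and 0 lower (11.4% of all genes called), and at 24 hours, where 2 of 23 were higher and 2 lower (10.7%), with 0 in each of the other 14 pairwise comparisons. At 12 hours Cfp, or properdin, the stabilizer of the alternative pathway enzyme, rose by 1.63 ± 0.44 on the log2 scale, Itgam and Itgb2, which form complement receptor 3, by 1.68 ± 0.24 and 1.49 ± 0.40, Itgax by 2.79 ± 0.63 and the C5a-binding receptor C5ar2 by 1.84 ± 0.54. At 24 hours the regulators Clu (clusterin) and Cd59a fell, by 1.06 ± 0.19 and 1.59 ± 0.30, and Clu was 593 ± 36.3 normalized TPM at amputation and 263 ± 43.5 at 24 hours (SD, n = 3 each). Cfp (1.57 ± 0.45) and Itgax (2.29 ± 0.67) rose at 24 hours as well. The called integrins are also genes of neutrophils and macrophages, whose markers moved at these times as given above.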

How the data were processed

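The authors sequenced poly A+ RNA from digits and macrophages, aligned reads with Bowtie to Ensembl transcripts (mm10 per the labels) and quantified them with RSEM 1.2.3. They deposited expected counts per gene, and normalized TPM as a signal scaled by the median of ratios, in 1 table of each kind for digits and 1 for macrophages. Here the expected counts were rounded, filtered (filterByExpr), scaled by TMM and compared in pairs with edgeR 4.0.16 in R 4.3.3. DESeq2 1.42.0 was an alternative. The study's own test, EBSeq, was not used here. A call needed an adjusted p under 0.05 and more than 2-fold between mean normalized counts with 1 added. Tests over several times used the adjusted p alone. Samples were grouped by their labels. The 55 replicate pairs all differed beyond counting noise (chi-square per degree of freedom from 3.05 to 412). Gene names that had turned into dates (26) were restored.

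The 9 genes and all gene lists were chosen with earlier results of these data known. Text names the 9 genes, other complement genes that were called or define the list, and the most similar genes outside the 9 by rank. C4a was not analysed here, so reads shared between C4b and C4a could not be examined. Some results on other items are not reported here. The spread between replicates exceeded counting noise and so sets the precision. Intermediate digits held 3408916 to 11980697 counts. Alternatives were another scaling, no filter, no fold limit, DESeq2, fits of all digits with and without the date period, a replicate block and leaving out each library.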

Additional observations from a re-analysis of the deposited data

Results flagged for a closer look

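Cfb on day 7 in the non-regenerative digits had 1 value far from the others. The second digit held 145 normalized TPM against 16 to 23.5 in the other 4, and its gap took 0.942 of the group's range, above the Dixon limit of 0.71 for 5 values. It was the digit with the fewest genes detected. Chance exceeds that limit in about 1 in 20 groups, and 18 such values, the lowest and highest digit for each of 9 genes, were examined.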

How the results depend on the processing

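No called change of the 9 genes reversed direction, while the uncalled M1 values of C1qb and C5ar1 turned to -0.585 and -0.097 with library size as the only scaling. Of 130 counts of called genes under alternatives other than leaving out a library 104 were within 1.5 times the value given. With all 41 digits in 1 fit, with or without the date period, the counts at 6, 12 and 24 hours and from 24 hours to day 3 became 0, and at day 14 they became 3 (C1qa, C1qb and Cfb). That fit includes the day-14 digit that stood apart, which held the highest day-14 normalized TPM of C1qa (658), C1qb (772) and Cfb (82.5). It was not repeated without that digit. At day 7 the fit with the period gave 1 (C3ar1, edgeR adjusted p = 0.0456). Without the filter on low counts day 3 gave 2 and 24 hours to day 3 gave 4. DESeq2 gave 3 on day 3, 2 on day 7, 1 on day 14, 4 from 24 hours to day 3, 1 in intermediate digits at 24 hours, 7 over time in non-regenerative and 1 over time in intermediate digits. Without the fold limit the counts were 2 at 12 hours, 9 for M1 against M0, 6 for M2 against M0 and 8 for M1 against M2. DESeq2's size factors in edgeR gave 5 over time, as did leaving out both digits that stood apart, chosen after seeing the data. Library size as the only scaling, also chosen after seeing the data, gave 6, 2 and 4 for the macrophage comparisons. Under it C1qa was -1.18 and C1qc -1.04 in M1 against M0, and C1qa -1.22 in M1 against M2, each more than 2-fold lower. The cause was not tested.

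Leaving out each library gave 0 to 1 genes at 6 hours (C4b), 1 to 3 at 12 hours, 0 to 2 at 24 hours, 0 to 2 on day 3, 0 to 4 from 24 hours to day 3, 2 to 3 for M2 against M0 and 1 to 6 over time (1 without the second digit of day 14, 6 without the second of day 7), 5 to 5 for the other macrophage comparisons and 0 to 0 elsewhere. A replicate block gave 5, 3 and 5 macrophage calls, as without it. Same-numbered libraries of different states correlated between -0.075 and 0.066 in their deviations from the state means, and the other pairs between -0.056 and 0.113. These values showed no pairing by number, but with 3 libraries per state they cannot decide whether same numbers share a mouse or culture. Over all genes the pairwise fits called 638, 1491 and 1437 at 6, 12 and 24 hours and 358 from 24 hours to day 3, against 116, 421, 331 and 17 in the fit of all digits, which called 731 on day 14 where the pairwise fit called 0. DESeq2 called 450 on day 3 against 96, 161 on day 7 against 7, 354 on day 14, 748 from 24 hours to day 3 and 4406 over time against 1100, a count that became 3003 without both digits that stood apart. Joint counts of C4b and C4a could not be run. C2 did not pass the count filter at 3 of the 8 later times in non-regenerative digits.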

Other observations

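In macrophages genes of the C1 complex and its inhibitor were called beside the components. Serping1 (C1 inhibitor) was 4.36 ± 0.79 normalized TPM in M0, 76.6 ± 3.92 in M1 and 12 ± 1.35 in M2 (SD, n = 3 each). It rose by 4.18 ± 0.10 log2 units in M1 and 1.47 ± 0.15 in M2 (edgeR adjusted p = 1.42e-12 and 6.57e-06), and the C1 proteases C1ra and C1s1 rose in M1 by 1.45 ± 0.08 and 2.007 ± 0.126.

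The integrin chains of the complement receptors split by state. Itgam rose by 2.106 ± 0.064 log2 units in M1 and fell by 1.56 ± 0.07 in M2, whereas Itgax was 8.3 ± 0.30 normalized TPM in M0, 3.76 ± 0.35 in M1 and 259 ± 6.6 in M2. Over the 42 other complement genes 6 were called higher and 7 lower in M1 and 4 higher and 6 lower in M2, of 20 tested in each, and 6 higher and 4 lower in M1 against M2, of 18 tested. Of all genes 46.1%, 22.3% and 48% were called in these comparisons. Cfd was listed at 0 in all 9 macrophage libraries and Mbl2 and Fcnb in all 41 digits.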
